A study of Rattus norvegicus with 8 samples.

Results

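The genes described here are 3 matrix metalloproteinases, Mmp2 (ENSRNOG00000016695), Mmp3 (ENSRNOG00000032626) and Mmp9 (ENSRNOG00000017539), and their inhibitor Timp1 (ENSRNOG00000010208). They were chosen by these Ensembl IDs, and all 4 were found among the 21867 genes in the table of estimated counts. RNA was sequenced in 8 libraries of rat cardiac cells, 2 biological replicates in each of 4 groups. Cardiac fibroblasts (CF) were isolated from neonatal Wistar Kyoto rats and grown in standard medium with 10% fetal bovine serum (FBS), with no current. Myofibroblasts (MF), the contractile and matrix-producing cells that fibroblasts become after injury, were derived from these CFs by repeated passaging in low-serum medium and also received no current. The 2 other groups were MFs exposed to direct current at 1 µA/cm2 (1 µA) or 2 µA/cm2 (2 µA) for 72 h and kept in standard medium with 10% FBS. MFs thus differ from CFs in passage and serum as well as in phenotype, and the medium of the untreated MFs over the 72 h is not given in the sources used here, so effects of medium and of current cannot be told apart. All groups are primary cultures rather than purified cells. Cell type markers were not checked, because the files give Ensembl IDs only and 0 of these IDs matched the reference gene table.

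Matrix metalloproteinases are zinc-dependent endopeptidases that are secreted as inactive proenzymes and together cut most components of the extracellular matrix. MMP2 and MMP9 are the gelatinases, which degrade denatured collagen and the type IV collagen of basement membranes. MMP2 is made constitutively by fibroblasts, whereas transcription of MMP9 is strongly inducible. MMP3, or stromelysin-1, cuts proteoglycans and fibronectin and activates other proenzymes, that of MMP9 included. TIMP1 blocks the active site of most secreted metalloproteinases and also binds the proenzyme of MMP9, so the balance of enzymes and inhibitor helps set matrix turnover in the injured heart.

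To show regulatory sequence upstream of the genes described here, the 250 bases before the RefSeq transcription start are given for Timp1 and Mmp3. They run 5′ to 3′ on the strand of the gene (build GRCr8, whereas the files use rn6). The promoter table held only these 2 of the 4 genes. The window of Timp1 is chrX:3771123-3771372 on the minus strand, and that of Mmp3 is chr8:12925031-12925280 on the plus strand. Capitals mark matches to AP-1 (TGANTCA), PEA3/ETS (AGGAAG) and GC box (GGGCGG) letters on either strand, none of which overlap each other here.
Timp1: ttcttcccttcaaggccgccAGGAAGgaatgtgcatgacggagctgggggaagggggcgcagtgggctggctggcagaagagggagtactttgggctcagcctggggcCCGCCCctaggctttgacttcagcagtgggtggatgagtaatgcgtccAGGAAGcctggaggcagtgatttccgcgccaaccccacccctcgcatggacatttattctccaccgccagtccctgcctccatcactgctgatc
Mmp3: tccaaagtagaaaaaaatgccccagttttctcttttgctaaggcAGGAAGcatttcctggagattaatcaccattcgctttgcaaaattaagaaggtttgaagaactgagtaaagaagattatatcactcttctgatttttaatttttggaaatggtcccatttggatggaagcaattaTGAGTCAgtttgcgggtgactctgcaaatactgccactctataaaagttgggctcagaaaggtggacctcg
The Timp1 window held the PEA3/ETS letters at 2 places, 230 and 94 bases before the start, and the GC box letters on the opposite strand 142 bases before it. The Mmp3 window held the AP-1 letters 71 bases and the PEA3/ETS letters 206 bases before the start. Among the 33469 windows of this length in the table, 6.34% held the AP-1 letters, 29.5% the PEA3/ETS letters and 30.5% the GC box letters, the AP-1 letters being the least frequent. Such matches describe letters and are no evidence of binding. Variants of these letters were not searched for, so an unmarked stretch is no evidence that an element is missing.

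The libraries held between 26473085 and 37903701 estimated counts in total. For every comparison the estimated counts were rounded, scaled by TMM and fitted with edgeR's quasi-likelihood test over all groups, and adjusted p denotes the Benjamini-Hochberg value of that test over the 13849 genes that passed the filter on low counts. Calls required an adjusted p under 0.05 together with a log2 fold change of 1 or more in size. Mmp2, Mmp9 and Timp1 passed the filter and Mmp3 did not. Levels are given as CPM, the count divided by the TMM-scaled library size and put on a common scale, and are compared only within a gene, since they are not corrected for gene length. In bulk RNA, fewer expressing cells and less RNA per cell cannot be told apart.

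**Figure D1:**
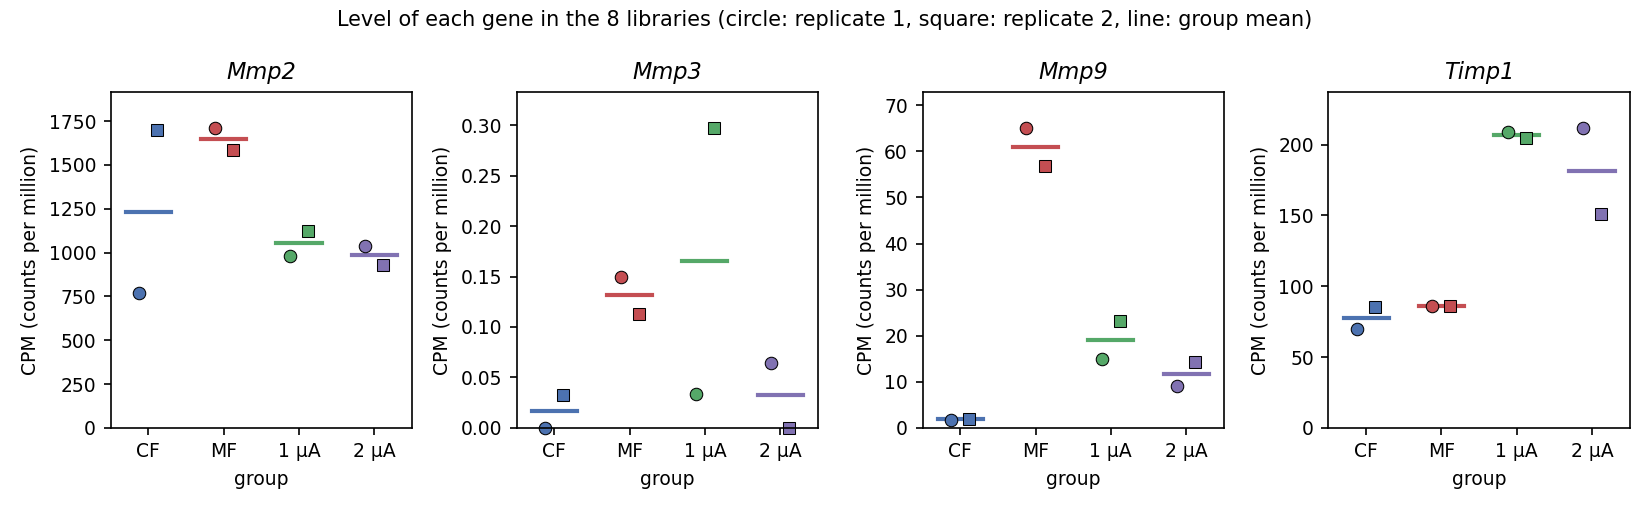
Level of Mmp2, Mmp3, Mmp9 and Timp1 (CPM, linear axis from 0, a separate scale for each gene) in the 8 libraries, with circles for replicate 1, squares for replicate 2 and a line at the mean of each group (CF, MF, 1 µA, 2 µA). Mmp9 was highest in both MF libraries, Timp1 was higher in all 4 treated libraries than in the untreated ones, Mmp2 differed widely between the CF libraries, and Mmp3 stayed below 0.3 CPM.

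Mmp9, the inducible gelatinase, showed the widest changes of the 3 genes tested. It was nearly silent in CFs, rose in MFs, and after microcurrent lay between the CF and MF levels. In CFs it had 1.72 and 1.96 CPM, from 65 and 60 estimated counts. In MFs it had 65.1 and 56.8 CPM, from 1741 and 1510 estimated counts. At 1 µA the levels were 14.9 and 23.2 CPM, and at 2 µA they were 9.06 and 14.2 CPM. The treated replicates lay apart, with a gap wider than that of 90.7% of the genes tested at 1 µA and 85.6% at 2 µA. No treated library overlapped with CF or MF, as the lowest MF library was 2.45 times the highest treated library and the lowest treated library was 4.61 times the highest CF library. An ordering with all treated libraries above CF and below MF held for 5.37% of the genes tested.

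The fitted log2 fold change of Mmp9 in MF against CF was 5.05 ± 0.327 (SE, n = 2 and 2), a 33.1-fold rise (edgeR adjusted p = 0.00111). Among the 13849 genes it ranked 92nd by size of increase. Of the 3 genes tested, Mmp9 was the 1 gene called between MF and CF, a comparison in which 10.4% of all genes were called and 6.36% were called higher in MF. The interval of the log2 difference at 95% confidence ran from 4.27 to 5.82.

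Against MF, Mmp9 fell by 3.20-fold at 1 µA (log2 fold change of -1.68 ± 0.271, SE, n = 2 and 2, edgeR adjusted p = 0.0242). At 2 µA the level was 5.24-fold lower than in MF (log2 fold change of -2.39 ± 0.279, SE, n = 2 and 2, edgeR adjusted p = 0.0104). The mean of both current densities gave a log2 fold change of -2.03 ± 0.221 (SE, n = 4 and 2, edgeR adjusted p = 0.00479). These calls rested on both MF libraries, and with a single MF library in the fit most calls against MF over all genes were lost too. Without MF replicate 1 the adjusted p of the mean was 0.0724, and without MF replicate 2 it was 0.0546, with log2 fold changes of -1.93 and -2.13. The single densities lost the call as well, with an adjusted p of 0.178 and 0.134 for 1 µA and of 0.111 and 0.0836 for 2 µA without MF replicate 1 and 2. Leaving out 1 µA replicate 1 or 2 ended the call for 1 µA too (edgeR adjusted p = 0.103 and 0.112).

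Mmp9 nevertheless stayed well above CF in the treated cells. The fitted fold change against CF was 10.3 at 1 µA (log2 fold change of 3.37 ± 0.312, SE, n = 2 and 2, edgeR adjusted p = 0.00393) and 6.32 at 2 µA (2.66 ± 0.309, SE, n = 2 and 2, edgeR adjusted p = 0.00837). The latter call was lost when the fit held the CF and 2 µA libraries alone (edgeR adjusted p = 0.0775). That fit called 2 of 13526 genes, whereas the fit over all groups called 695 of 13849. Of the rise between the CF and MF means, measured in CPM, the single treated libraries had lost 77.9% and 63.8% at 1 µA and 87.8% and 79.1% at 2 µA. On the log2 scale the loss was 40.5% and 27.7% for the 1 µA libraries and 54.8% and 41.9% for the 2 µA libraries. The rise and its loss are both measured from the same MF libraries, so they are not independent of each other.

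Timp1, the inhibitor, followed a different course. It was level in CF and MF within the spread of the libraries and rose in the treated cells above both. The CF libraries had 69.9 and 85.0 CPM and the MF libraries 85.8 and 86.0 CPM. At 1 µA the levels were 209 and 205 CPM, and at 2 µA they were 212 and 151 CPM. The lowest treated library, 2 µA replicate 2, was 1.76 times the highest untreated library. A gap of this kind, with all 4 treated libraries above all of CF and MF, was found for 7.5% of the genes tested.

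Between MF and CF, the log2 fold change of Timp1 was 0.15 ± 0.173 (SE, n = 2 and 2, edgeR adjusted p = 0.578), with a 95% interval from -0.26 to 0.56, so a change in either direction of up to about this size is not excluded by these libraries. With 1 library left out it ran from 0.030 (without CF replicate 1) to 0.30 (without CF replicate 2), and Timp1 was not called in any of these fits. Against MF, Timp1 rose 2.41-fold at 1 µA (log2 fold change of 1.27 ± 0.175, SE, n = 2 and 2, edgeR adjusted p = 0.0158) and 2.11-fold at 2 µA (1.08 ± 0.175, SE, n = 2 and 2, edgeR adjusted p = 0.0216). For the mean of both current densities the log2 fold change was 1.17 ± 0.158 (SE, n = 4 and 2, edgeR adjusted p = 0.00796). Against CF the rise was 2.67-fold at 1 µA (edgeR adjusted p = 0.00783) and 2.34-fold at 2 µA (edgeR adjusted p = 0.0133). When the fit held the CF and 2 µA libraries alone, the latter was not called (edgeR adjusted p = 0.119). That fit called 2 of 13526 genes in all.

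The fold change of Timp1 at 2 µA lay close to the threshold and depended on replicate 1. Without 2 µA replicate 1 the log2 fold change was 0.82 against MF (edgeR adjusted p = 0.0499) and 0.97 against CF (edgeR adjusted p = 0.0325), both below the fold threshold of 1. Without 1 µA replicate 1, the adjusted p of Timp1 at 2 µA against MF was 0.051 at a log2 fold change of 1.08, and at 1 µA it was 0.0822 against MF and 0.0624 against CF. Without 1 µA replicate 2 it was 0.132 at 1 µA against MF. With one or the other MF library left out, the rise of Timp1 for the mean of both current densities no longer passed (edgeR adjusted p = 0.104 without replicate 1 and 0.089 without replicate 2), at log2 fold changes of 1.17 and 1.18. The calls of Timp1 at 1 µA and at 2 µA against MF were then lost too, as were most calls against MF over all genes.

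Mmp2, the constitutive gelatinase, was not called in any of the 7 comparisons. Its CF libraries lay far apart, at 771 and 1696 CPM, a 2.20-fold difference between replicates. This gap was wider than that of 92.6% of the genes tested in CF. The MF libraries had 1710 and 1585 CPM, the 1 µA libraries 981 and 1122 CPM, and the 2 µA libraries 1039 and 930 CPM. All 4 treated libraries were thus below both MF libraries, as for 26.6% of the genes tested, and they fell within the span of the CF libraries.

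The log2 fold change of Mmp2 was -0.65 ± 0.333 at 1 µA (SE, n = 2 and 2, edgeR adjusted p = 0.269) and -0.74 ± 0.334 at 2 µA (SE, n = 2 and 2, edgeR adjusted p = 0.205) against MF. The mean of both gave -0.70 ± 0.281 (SE, n = 4 and 2, edgeR adjusted p = 0.141), with a 95% interval from -1.36 to -0.028. The spread between the CF libraries entered the error of these values, since all groups shared the fit. Without CF replicate 1 or 2 the adjusted p of the mean was 0.00873 or 0.00861 at a log2 fold change of -0.69 in both, and with only the treated and MF libraries in the fit it was 0.00872. The fold threshold was not reached in any of these.

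Between MF and CF, Mmp2 had a log2 fold change of 0.42 ± 0.332 (SE, n = 2 and 2, edgeR adjusted p = 0.411). The direction rested on a single CF library. Without CF replicate 1, whose level was the lowest of all libraries, the log2 fold change was -0.027 (edgeR adjusted p = 0.936), and without CF replicate 2 it was 1.09 (edgeR adjusted p = 0.00642). Treated cells and CFs could not be ordered for Mmp2 either, with log2 fold changes of -0.23 ± 0.332 at 1 µA and -0.33 ± 0.332 at 2 µA (SE, n = 2 and 2, edgeR adjusted p = 0.705 and 0.603), and both became positive without CF replicate 2, at 0.45 and 0.36.

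Mmp3, the stromelysin, was at the limit of detection in every group. Its estimated counts were 0 and 1 in CF, 4 and 3 in MF, 1 and 9 at 1 µA, and 2 and 0 at 2 µA, which sum to 20 over the 8 libraries. The highest value, 9 counts in 1 µA replicate 2, was 0.297 CPM, and the other 1 µA library had 0.0336 CPM. A count of 0 allows a level of up to 0.0795 CPM in CF replicate 1 and 0.0971 CPM in 2 µA replicate 2, counting error only. With the filter on low counts removed, Mmp3 was not called in any comparison (edgeR adjusted p of 0.308 for MF against CF and from 0.519 to 0.926 for the treated groups and their mean against MF). Differences in Mmp3 between the groups were not detectable at this depth, and the table of whole-number counts does not list the gene.

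**Figure D2:**
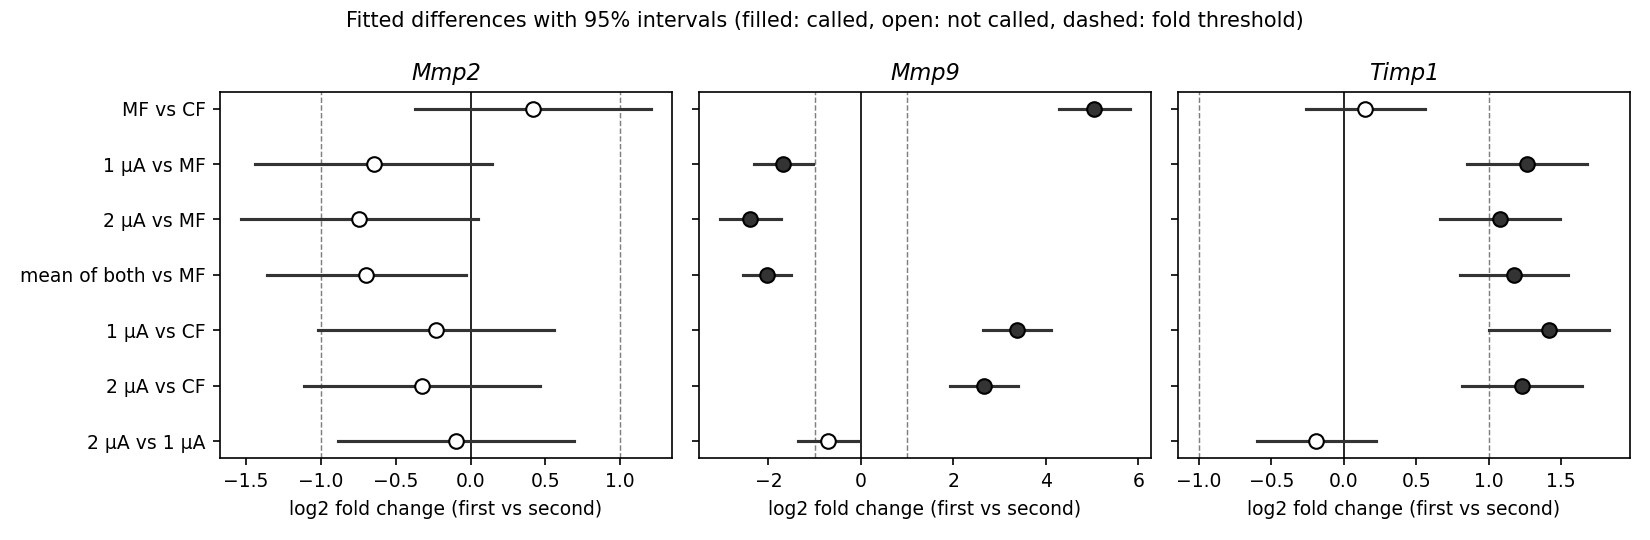
Fitted log2 fold change (points) and 95% interval (lines) of Mmp2, Mmp9 and Timp1 in the 7 comparisons, each the first group against the second, with filled points for called genes, open points for genes not called and dashed lines at the fold threshold. Mmp9 was called in 6 comparisons and Timp1 in 5, Mmp2 in 0, and none of the 3 was called between 2 µA and 1 µA.

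Counting over the 3 genes tested, 2 (Mmp9 lower and Timp1 higher) were called in each comparison of treated cells with MF. The share called over all genes was 3.92% for 1 µA, 4.62% for 2 µA and 6.76% for their mean against MF. The same 2 genes were called against CF, both higher. For 1 µA against CF the share called over all genes was 6.51%, with 3.82% higher, and for 2 µA against CF it was 5.02%, with 2.89% higher. These comparisons share their MF or CF libraries.

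No difference between the current densities was called for these genes, and over all genes 0.00722% were called between 2 µA and 1 µA. That was 1 gene by edgeR, with 72 at an unadjusted p below 0.05, and 7 by DESeq2. edgeR called 0 at an adjusted p below 0.01, with at least 10 counts in every library (49 at an unadjusted p below 0.05), with the whole-number matrix (73) and from these groups alone (83). With 1 library left out it called 0 or 1, with 58 to 787 at an unadjusted p below 0.05, the highest without 2 µA replicate 1. Mmp9 was lower at 2 µA than at 1 µA by a log2 fold change of -0.71 ± 0.272 (SE, n = 2 and 2, edgeR adjusted p = 1), with a 95% interval from -1.36 to -0.067. With 1 library left out this value ran from -0.35 (without 1 µA replicate 2) to -1.07 (without 2 µA replicate 2), and the gene was not called in any of these fits. Both 1 µA libraries were above both 2 µA libraries, as for 9.74% of the genes tested, but the margin, 14.9 against 14.2 CPM, was narrower than the gap between replicates of either density. For Timp1 the log2 fold change was -0.19 with an interval from -0.60 to 0.22, and for Mmp2 it was -0.09 with an interval from -0.88 to 0.69. Differences of up to these bounds remain possible, and the data do not show that the densities act alike.

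In order of level, Mmp9 thus ran from CF through 2 µA and 1 µA to MF, with 2 µA and 1 µA the neighbours that did not pass the test. Timp1 ran from CF and MF, which did not differ beyond their spread, to 2 µA and 1 µA, which also did not. For Mmp2 the means ran from 2 µA through 1 µA and CF to MF, and no neighbours in that order differed beyond their spread.

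The ratio of a metalloproteinase to Timp1 within a library needs no scaling for library size. It is read here only as a change between groups, because the counts are not per length. Factors that differ between genes and libraries do not cancel, and for Timp1 they ran from 0.939 to 1.06 of the library median. With the authors' normalized values, which are divided by them, the log2 difference of MF against CF was 0.46 for Mmp2 and 4.97 for Mmp9. For treated against MF it was -1.90 and -3.27. The log2 ratio of Mmp9 to Timp1 counts (each with 0.5 added) was -5.38 ± 0.0651 in CF (SD, n = 2), -0.50 ± 0.141 in MF (SD, n = 2) and -3.73 ± 0.611 in the treated libraries (SD, n = 4). It was 29.4-fold higher in MF than in CF (two-sided exact permutation test, p = 0.333, the smallest that 2 against 2 libraries allow). In treated libraries it was 9.37-fold lower than in MF (two-sided exact permutation test, p = 0.0667, the smallest that 4 against 2 allow). No treated library overlapped with MF or CF. For this ratio and that of Mmp2, the SD and the test take the 4 treated libraries of both densities as 1 group.

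For Mmp2 to Timp1, the log2 ratio was 3.89 ± 0.605 in CF (SD, n = 2), 4.26 ± 0.0798 in MF (SD, n = 2) and 2.40 ± 0.174 in the treated libraries (SD, n = 4). MF and CF overlapped (two-sided exact permutation test, p = 1), and without CF replicate 1 the small difference turned its sign. The treated libraries lay 3.63-fold below MF (two-sided exact permutation test, p = 0.0667) and also below both CF libraries. In plain counts, there were 18.4 to 19.9 Mmp2 counts for each Timp1 count in MF, 11.03 and 20.0 in CF, and 4.70 to 6.15 in the treated libraries. Of the genes in these ratios, Mmp9 and Timp1 were called against MF in the treated cells and Mmp2 was not.

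**Figure D3:**
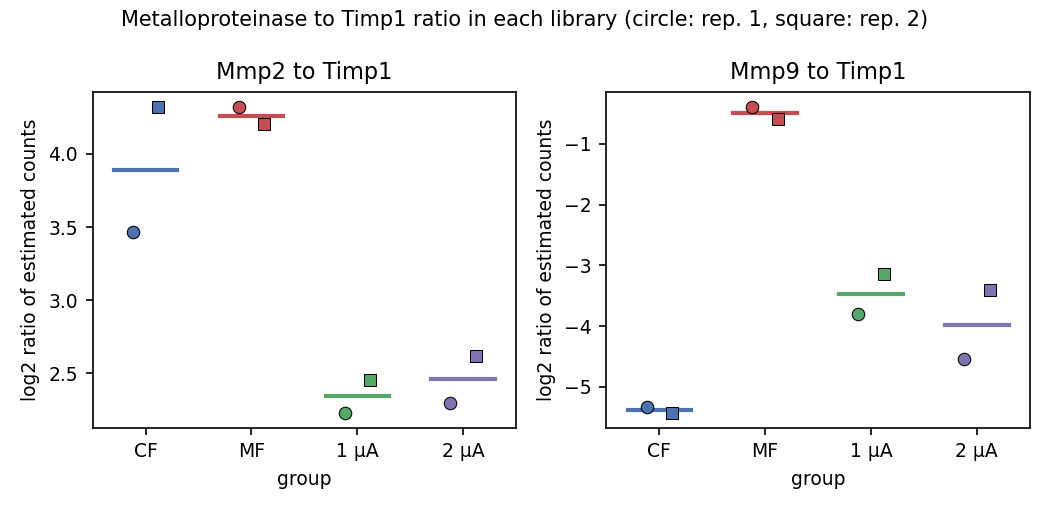
Log2 ratio of estimated counts of Mmp2 (left) and Mmp9 (right) to those of Timp1 in each library, with circles for replicate 1, squares for replicate 2 and lines at the group means. The 4 treated libraries lie below both MF libraries in each panel, with means of 2.40 against 4.26 for Mmp2 and -3.73 against -0.50 for Mmp9.

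**Figure D4:**
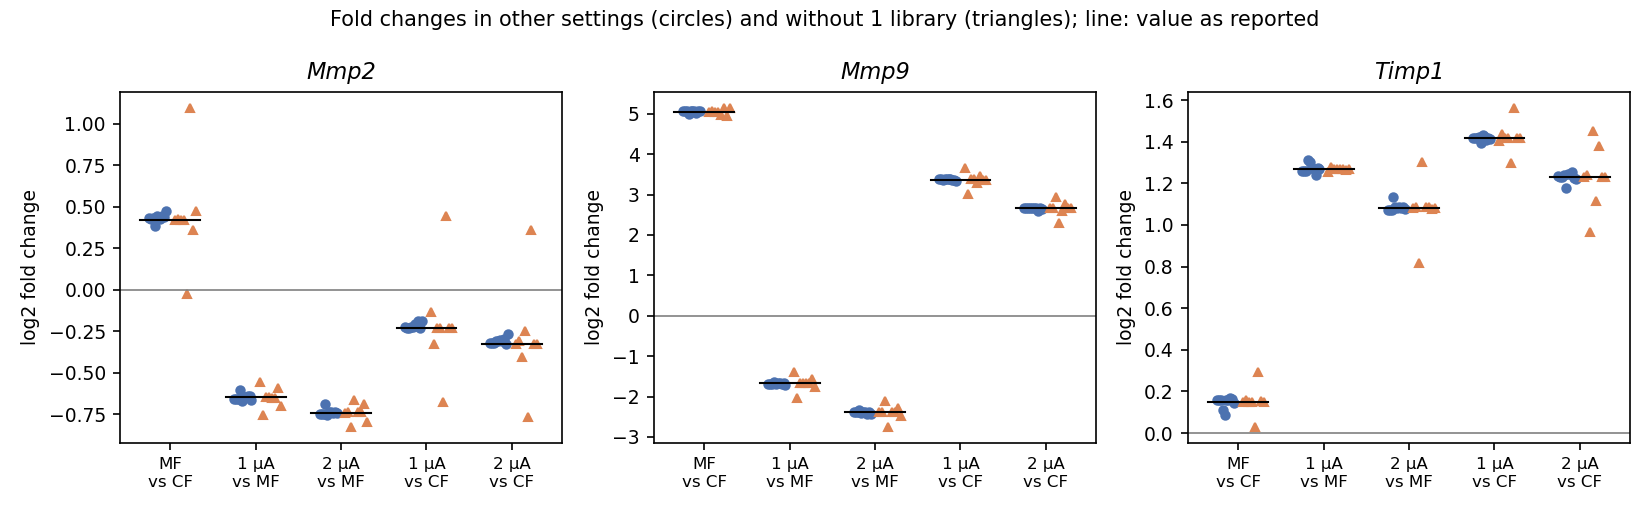
Log2 fold change of Mmp2, Mmp9 and Timp1 in 5 comparisons under the other settings tried (circles) and with 1 library left out (triangles), with a line at the value as reported. Mmp9 and Timp1 kept their direction throughout, whereas Mmp2 moved from -0.027 to 1.09 in MF against CF depending on which CF library was left out.

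Genes with a pattern like that of Mmp9 or Timp1 were sought by Pearson correlation of the authors' variance stabilised (vst) values over the 8 libraries among the 13849 genes. The gene closest to Mmp9 was ENSRNOG00000047053 (r = 0.993), whose mean level was 12.2 CPM in CF, 17.7 in MF and 15.0 in the treated cells. It shared the order of the groups with Mmp9 over a much narrower range. The gene closest to Timp1 was ENSRNOG00000007078 (r = 0.991), at 5.48 CPM in CF, 4.93 in MF and 18.3 in the treated cells. The correlations describe 8 libraries that fall into groups of 2, and with log2 CPM in place of vst values another gene ranked first for each, with 7 of the 10 closest genes in common for Mmp9 and 4 of 10 for Timp1.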

How the data were processed

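Estimated counts per gene were deposited by the authors, who ran salmon against the rat rn6 transcriptome and summed transcripts to genes with tximeta. They also deposited a normalized signal, in which these counts are divided by DESeq2 factors that differ between genes and libraries, and variance stabilised values on a log2 scale. A deposited matrix of whole-number counts for 13341 genes does not name its pipeline, and the labels describe fastp and STAR. Groups and replicate numbers came from the sample titles. Estimated counts were rounded and fitted with edgeR 4.0.16 (limma 3.58.1, R 4.3.3) using filterByExpr, TMM, robust dispersions and 1 coefficient per group, with 4 residual degrees of freedom before moderation. Each SE was obtained as the size of the log2 fold change over the root of F. Alternatives were DESeq2 1.42.0, other scalings, filters and thresholds, the recovered DESeq2 factors, the matrix, fewer groups, a replicate block and leaving out each library. The fit was tested on simulated counts.

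The genes, lists and comparisons were chosen with earlier results of these data known. Named genes were the 4 members and, with no table of symbols, at most 2 gene IDs of similar pattern. Lists of 65 further protease, inhibitor and signal genes and 37 cell type markers were not run, because 0 Ensembl IDs matched the reference table. Protein motifs were not analysed here. The labels call the replicates biological but do not name separate animals, so p-values cover the spread between these cultures, and floors cover counting error only.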

Additional observations from a re-analysis of the deposited data

How the results depend on the processing

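The log2 fold changes of Mmp2, Mmp9 and Timp1 kept their direction in all 210 values from refits that left out no library of the groups compared, and 2 lost the call. Fitted without the other groups, Mmp9 at 2.66 (adjusted p = 0.0775) and Timp1 at 1.23 (adjusted p = 0.119) were not called for 2 µA against CF. Both changed thresholds reuse the reported fit, so their 42 directions could not change. At an adjusted p below 0.01, 5 calls were lost, of Mmp9 at -1.68 and -2.39 and of Timp1 at 1.27 and 1.08 for 1 µA and 2 µA against MF, and of Timp1 at 1.23 for 2 µA against CF. A replicate block gave 5.06 for Mmp9 in MF against CF, and -2.08 for Mmp9 and 1.17 for Timp1 in the treated mean against MF, and changed no call of these genes. Correlations of same-numbered deviations ran from -0.17 to 0.24, the highest between 1 µA and 2 µA. They do not settle whether same-numbered libraries were paired. The cause was not tested for any change.

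Leaving out 1 library reversed 5 of 168 log2 fold changes and 1 ratio difference, removed 20 calls and added 1. A lone library was assumed to vary like the others. For Mmp2, values ran from -0.027 (without CF replicate 1) to 1.09 (without CF replicate 2) in MF against CF, from -0.68 to 0.45 and from -0.76 to 0.36 for 1 µA and 2 µA against CF, and from -0.19 to 0.015 (positive without 1 µA replicate 2) between 2 µA and 1 µA. For Mmp9 they ran from -2.04 to -1.39 for 1 µA, from -2.75 to -2.10 for 2 µA and from -2.21 to -1.89 for their mean against MF. For Timp1 they ran from 1.25 to 1.28 for 1 µA, from 0.82 to 1.30 for 2 µA and from 1.04 to 1.28 for their mean against MF, from 1.30 to 1.56 for 1 µA and from 0.97 to 1.45 for 2 µA against CF, and from -0.45 to 0.034 (positive without 2 µA replicate 2) between 2 µA and 1 µA. The log2 ratio of Mmp2 to Timp1 in MF against CF ran from -0.058 (without CF replicate 1) to 0.80.

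DESeq2 without the count filter called 939 genes in place of 543 for 1 µA and 1033 in place of 640 for 2 µA against MF, and 1075 in place of 695 for 2 µA against CF. On the genes edgeR tested, an alternative added after seeing the data, it called 946, 1040 and 1075. The groups compared alone gave 1164 for 1 µA against MF, 485 in place of 901 for 1 µA against CF and 2 for 2 µA against CF. No fold threshold gave 2560 in place of 1438 in MF against CF, 968 and 1097 for 1 µA and 2 µA and 2077 in place of 936 for their mean against MF. The stricter p gave 498 in MF against CF, 44, 49 and 253 for 1 µA, 2 µA and their mean against MF, and 234 and 129 for 1 µA and 2 µA against CF. With a library left out, counts were 336 to 1997 in MF against CF, 4 to 886, 9 to 985 and 17 to 1101 for 1 µA, 2 µA and their mean against MF, and 138 to 1191 and 292 to 1020 for 1 µA and 2 µA against CF, the lowest against MF without MF replicate 1.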

Other observations

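The matrix of whole-number counts held 70.4% to 73.7% of the total of the estimated counts per library. For Mmp2, Mmp9 and Timp1 that share differed by gene, from 44.2% to 47.8% over the libraries for Mmp2 and from 77.2% to 80.1% for Mmp9. The range was widest for Timp1, from 60.7% in CF replicate 1 to 67.7% in MF replicate 1. The fold changes were alike in both tables, with log2 values of 5.03 for Mmp9 between MF and CF and 1.16 for Timp1 in the mean of both current densities against MF in the matrix. Why the tables count such different shares of these genes was not tested.

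The factor by which the authors divided each estimated count depends on the length of the transcripts that salmon found. For Mmp9 it stayed within 0.994 to 1.01 of the median factor of the same library, and for Mmp2 within 0.994 to 1.01. For Timp1 it ran from 0.939 in CF replicate 1 to 1.06 in MF replicate 1, and it differed between replicates of the same group, at 0.953 and 1.03 in the 1 µA libraries. With these factors in the fit, the log2 fold change of Timp1 was 0.09 between MF and CF and 1.20 for the mean of both current densities against MF. Whether the mix of Timp1 transcripts differs between these libraries was not tested.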
